A study of Rattus norvegicus with 4 samples.

Results

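The tubulin isotypes described here are 10 genes of the rat genome that encode alpha and beta tubulin, 4 alpha genes (Tuba1a, Tuba1b, Tuba1c and Tuba4a) and 6 beta genes (Tubb2a, Tubb2b, Tubb3, Tubb4b, Tubb5 and Tubb6). They were chosen by gene symbol from the 31038 rows of each count file, and each of the 10 symbols had a row. Ribosome footprints were counted in 4 libraries of rat myocardial cells, grown in serum-containing medium and all given an siRNA. A control siRNA was used for 2 libraries, called siNT, and an siRNA against eIF3m, a subunit of the translation initiation complex eIF3, for the other 2, called si3m. The cell type label is NRVM, a usual name for ventricular myocytes of newborn rats, but the growth protocol gives embryonic myocardium as the source. Whether separate cultures gave the libraries of a group is not in the labels, so a p-value measures only the spread between these libraries, which may be technical. Footprint counts combine the amount of messenger RNA with its translation, and no RNA-seq was used here to separate them.

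Alpha and beta tubulin form the heterodimer from which microtubules assemble. Microtubules carry transport in resting cells and build the spindle in dividing ones, and in cardiac muscle cells a network rich in detyrosinated alpha tubulin stiffens the cell. Cells adjust tubulin production to the pool of free heterodimer: when that pool grows, the factor TTC5 binds the first residues of tubulin chains as they leave the ribosome, and the adapter SCAPER and the CCR4-NOT deadenylase complex then degrade the messenger RNA being translated. Ribosomes on tubulin messages are therefore both the means of synthesis and the place of this control.

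The siNT libraries held 3924434 and 3835750 counts and the si3m libraries more, 8687598 and 6726969. Values below are therefore in CPM, counts made comparable between libraries by TMM scaling (or, where said to be of the library total, by the total alone), and every mean is followed by its SD over the 2 libraries of the group (n = 2). As a check on the labels, counts of Eif3m itself were 2136 and 1774 (siNT) against 1168 and 1232 (si3m), a log2 fold change of -1.59 (SE 0.11) at an edgeR adjusted p of 3.41e-08. That p rose to 0.0522 with robust quasi-likelihood. The labelled cell type was poorly borne out by its markers: of 19 cardiomyocyte genes, between 8 and 14 had at most 6 counts in a library, and Tnni3, Myl7 and Nppa had 0 in all 4. Their summed level lay between 349 and 400 CPM (of the library total, as for the sums that follow), led by Casq2, a calcium-binding protein of the sarcoplasmic reticulum. The 12 fibroblast markers summed to 12468 and 12364 CPM in siNT and to 16492 and 16280 in si3m, with Tcf21 at 0 in every library. The sum over 7 smooth muscle genes lay between 3241 and 3593 CPM, over 8 endothelial genes between 6.63 and 12.2, and over 11 neuron and Schwann cell genes between 2.07 and 8.32. The 6 leukocyte genes, led by Cd14, summed to 31.6 and 35.5 CPM in siNT and were lower in both si3m libraries, at 15.4 and 15.8.

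The stretches just upstream of the transcription start of the 6 tubulin genes that changed are shown for the reader to see what their promoters share. They come from RefSeq on the rat assembly GRCr8, run 5′ to 3′ on the strand of the gene and end at the base before the start. Capitals mark every match, on either strand, to 4 short motifs: CCAAT (or its reverse complement ATTGG), the TATA box core TATAA (reverse complement TTATA), the GC box GGGCGG (reverse complement CCGCCC) and TTTGAA (reverse complement TTCAAA), the last being the letters of the cell cycle homology region found in promoters of mitotic genes. A TATA core can overlap its own reverse complement, and such overlapping matches count once in the shares below. The positions are chr7:131972588-131972747 (minus strand) for Tuba1b, chr7:131995820-131995979 (minus) for Tuba1a, chr7:132070824-132070983 (plus) for Tuba1c, chr9:84162585-84162744 (minus) for Tuba4a, chr20:2917417-2917576 (plus) for Tubb5 and chr3:28438456-28438615 (minus) for Tubb4b.
Tuba1b: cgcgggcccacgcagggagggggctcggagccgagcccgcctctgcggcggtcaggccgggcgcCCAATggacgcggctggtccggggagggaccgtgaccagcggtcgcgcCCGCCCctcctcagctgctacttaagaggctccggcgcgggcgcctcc
Tuba1a: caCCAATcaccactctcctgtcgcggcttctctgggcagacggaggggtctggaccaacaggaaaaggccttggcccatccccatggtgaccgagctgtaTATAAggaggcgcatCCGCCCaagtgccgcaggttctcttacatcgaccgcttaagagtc
Tuba1c: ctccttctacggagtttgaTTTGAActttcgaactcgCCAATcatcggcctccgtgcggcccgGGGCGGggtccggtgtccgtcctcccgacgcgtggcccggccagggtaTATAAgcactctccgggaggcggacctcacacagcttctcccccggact
Tuba4a: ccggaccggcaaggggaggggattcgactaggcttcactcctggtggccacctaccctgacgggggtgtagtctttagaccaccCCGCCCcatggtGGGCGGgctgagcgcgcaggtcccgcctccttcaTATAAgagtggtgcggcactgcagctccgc
Tubb5: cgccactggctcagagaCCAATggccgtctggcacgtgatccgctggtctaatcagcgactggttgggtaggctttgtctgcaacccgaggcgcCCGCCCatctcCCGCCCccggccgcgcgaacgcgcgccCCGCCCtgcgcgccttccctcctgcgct
Tubb4b: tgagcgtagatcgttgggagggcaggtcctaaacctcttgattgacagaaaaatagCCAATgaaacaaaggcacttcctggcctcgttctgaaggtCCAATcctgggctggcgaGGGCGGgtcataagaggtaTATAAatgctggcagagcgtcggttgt
In the windows of 300 bases that RefSeq gives around each start (250 before and 50 after it), CCAAT or its complement was present for 8 of the 10 members, against 37.5% of all 33469 such windows. GGGCGG was present for 9 of 10 (33.1% of all windows), TATAA for 6 of 10 (26.2%) and TTTGAA for 2 of 10, Tuba1c and Tubb4b (18.3%). The member windows were between 53.0% and 75.7% G and C, and base composition was not matched in these shares. Among the printed promoters, Tuba1b and Tubb5 held no TATAA, with CCAAT starting 96 and 143 bases before the start. Tuba1a held TATAA starting 60 bases before the start. Tuba1c held all 4 motifs, with TATAA starting 49 bases and TTTGAA 141 bases before the start. A single start per gene was searched, and a match is a description of letters and not evidence that a factor binds.

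Alpha tubulin footprints were higher in si3m for all 4 genes, and Tuba1b and Tuba1a, the closely related and neighbouring genes, carried most of the difference. Tuba1b, the alpha isotype of most dividing cells, gave 941 and 837 counts with the control siRNA and 4721 and 3663 with the siRNA against eIF3m. Scaled for depth these were 234 and 213 CPM (siNT) and 556 and 567 CPM (si3m). Both si3m libraries stood far above both siNT libraries, and the values within each group lay close together. The mean rose 2.51-fold, from 223 ± 15.3 to 561 ± 7.54 CPM. Its log2 fold change was 1.33 (SE 0.061) at an edgeR adjusted p of 1.94e-10. Whether each cell made more tubulin or more of the cells were of a kind that makes it cannot be told apart in bulk libraries, here and below.

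Tuba1a, abundant in developing neurons and also made by many other young cells, gave 477 and 399 counts against 2065 and 1520. These corresponded to 119 and 101 CPM with the control siRNA and 243 and 235 CPM with the siRNA against eIF3m, again with a wide gap between the groups. It rose 2.17-fold, from 110 ± 12.3 to 239 ± 5.69 CPM, with a log2 value of 1.12 (SE 0.081) and an edgeR adjusted p of 4.64e-08. Among all tested genes, 96.8% had a lower log2 fold change than Tuba1b and 94.8% a lower one than Tuba1a.

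Tuba4a, an alpha isotype of muscle, brain and platelets whose gene does not encode the terminal tyrosine, gave 182 and 184 counts against 646 and 406. In CPM the siNT libraries gave 45.3 and 46.7 and the si3m libraries 76.1 and 62.8, so the si3m values were spread but above both controls. It rose 1.51-fold (log2 0.60, SE 0.14, edgeR adjusted p = 0.00486). This call was lost without si3m replicate 1 (log2 0.46, adjusted p = 0.0927).

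Tuba1c, the third gene of the same cluster, moved least. Its siNT counts were 554 and 570 and its si3m counts 1559 and 1012, or 138 and 145 CPM against 184 and 157 CPM. The groups did not overlap, but si3m replicate 2 lay only just above siNT replicate 2. The rise was 1.21-fold (log2 0.27, SE 0.086, edgeR adjusted p = 0.0284), a call lost without siNT replicate 1 (adjusted p = 0.0510), without si3m replicate 1 (log2 0.16, 0.351), with total count scaling (0.134) and in DESeq2 (0.117). Its upper 95% limit of 0.45 on the log2 scale lay below the lower limits of Tuba1a (0.95) and Tuba1b (1.20). Tuba1b thus went from 1.58 ± 0.163 times the count of Tuba1c in siNT to 3.32 ± 0.418 times in si3m, while its ratio to Tuba1a went from 2.04 ± 0.0884 to 2.35 ± 0.0874.

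**Figure D1:**
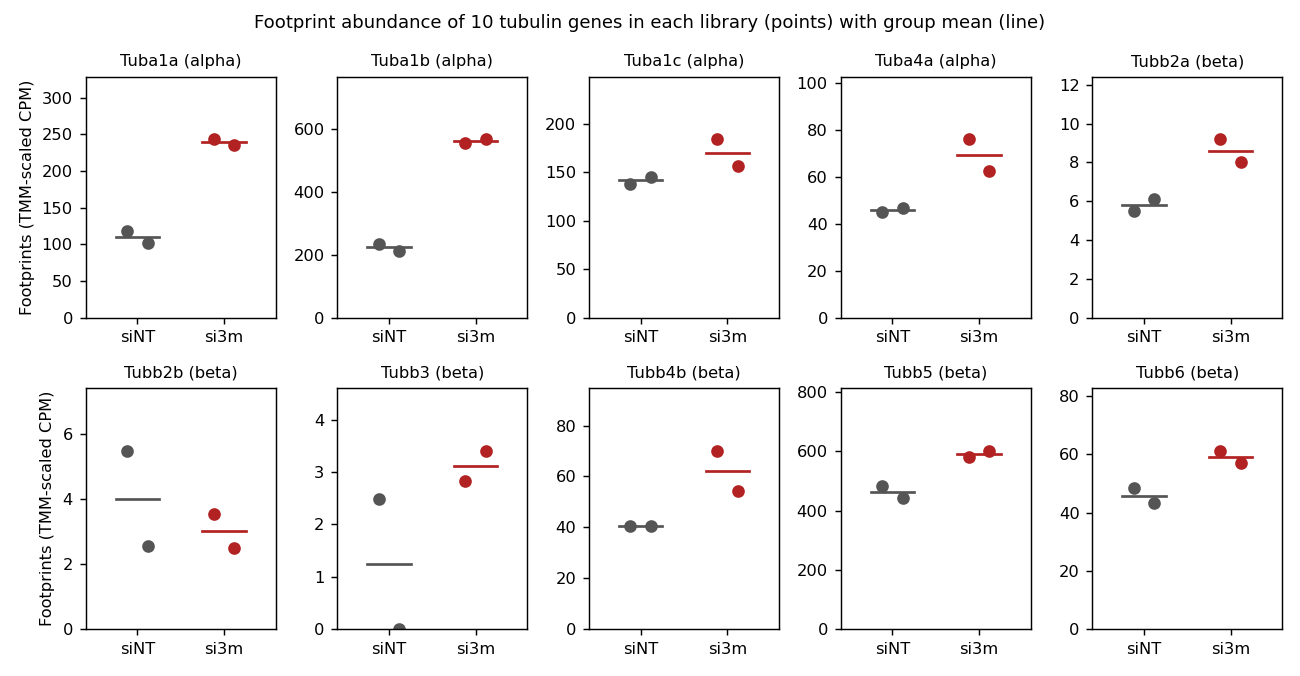
Footprint abundance (TMM-scaled CPM, vertical axis, each panel on its own scale from 0) of the 10 tubulin genes in the siNT and si3m libraries, with points for libraries and a line for the group mean. Both si3m points lie above both siNT points in every panel but that of Tubb2b, and the widest gaps are those of Tuba1a and Tuba1b.

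Beta tubulin footprints were dominated by Tubb5, the beta isotype of most proliferating and connective tissue cells, which took 82.6% ± 0.119 of the beta counts in siNT and 81.3% ± 2.10 in si3m. Its siNT counts were 1936 and 1739 and its si3m counts 4940 and 3892. The corresponding CPM were 482 and 442 against 582 and 602, with no overlap but a far narrower gap than that of Tuba1b. It rose 1.28-fold, from 462 ± 28.3 to 592 ± 14.4 CPM (log2 0.36, SE 0.056, edgeR adjusted p = 1.77e-04), and passed under all 15 alternative settings, with log2 values from 0.28 to 0.43.

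Tubb4b, a widely expressed isotype also used in cilia, gave 162 and 160 counts against 595 and 350. Its CPM were 40.3 and 40.6 in siNT, nearly alike, and 70.1 and 54.1 in si3m, which differed from each other by more than the siNT values did. The rise of 1.54-fold (log2 0.62, SE 0.16, edgeR adjusted p = 0.00726) did not pass without si3m replicate 1 (log2 0.43, adjusted p = 0.159).

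Tubb6, a less conserved isotype found in muscle and in several tissues at low level, gave 194 and 170 counts against 520 and 368. In CPM these were 48.3 and 43.2 against 61.2 and 56.9, so the groups did not overlap. Its log2 difference of 0.37 (SE 0.14, 95% interval 0.07 to 0.67) missed the threshold at an edgeR adjusted p of 0.0608, and reached it without siNT replicate 1 (0.0357) and with no low-count filter (0.0492).

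The isotypes best known from brain were scarce. Tubb2a gave 22 and 24 counts in siNT against 78 and 52 in si3m, with a log2 difference of 0.58 whose 95% interval ran from -0.18 to 1.33 (edgeR adjusted p = 0.254). Tubb2b, its neighbour on the same chromosome, had 22 and 10 against 30 and 16, and its interval of -1.60 to 0.79 around -0.40 held changes of either direction (adjusted p = 0.643). Without siNT replicate 1 its value turned to 0.26.

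Tubb3, the beta isotype used as a marker of neurons, gave 10 and 0 counts in siNT against 24 and 22 in si3m. The count of 0 in siNT replicate 2 allowed up to 6 counts, or 1.52 CPM. With 1.24 ± 1.76 CPM against 3.11 ± 0.408 CPM, a change was not detectable at this depth (log2 1.29, 95% interval -0.53 to 3.12, edgeR adjusted p = 0.292), although the gene passed without siNT replicate 1, which leaves a control at 0 counts. All 11 neuron and Schwann cell markers were at or below 6 counts in both siNT libraries, as were 10 of them in si3m replicate 1 and 7 in si3m replicate 2.

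Of the 10 members, all tested, 6 were higher in si3m at an edgeR adjusted p under 0.05 and 0 lower, where 14.0% of the 12672 tested genes were called higher, 13.9% lower and 27.8% either way. These 6 were all 4 alpha genes and, of the 6 beta genes, Tubb5 and Tubb4b. At an unadjusted p under 0.05, 7 were higher and 0 lower, and DESeq2 called 5 higher and 0 lower. Both si3m values lay above both siNT values for 9 of 10 members, all but Tubb2b, against 32.6% of tested genes (63.9% did not overlap in one direction or the other). The same 9 had a log2 fold change above 0, as did 51.2% of tested genes. The median log2 fold change was 0.59 over the 10 members and 0.02 over all tested genes. The number called higher fell to 3 without si3m replicate 1, leaving Tuba1a, Tuba1b and Tubb5, and was 6 with counts thinned to equal depth. Over all genes the split depended on the scaling, with 1771 higher and 1757 lower as tested here but 1428 higher and 2217 lower with total count scaling, where 5 members were higher and 0 lower.

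**Figure D2:**
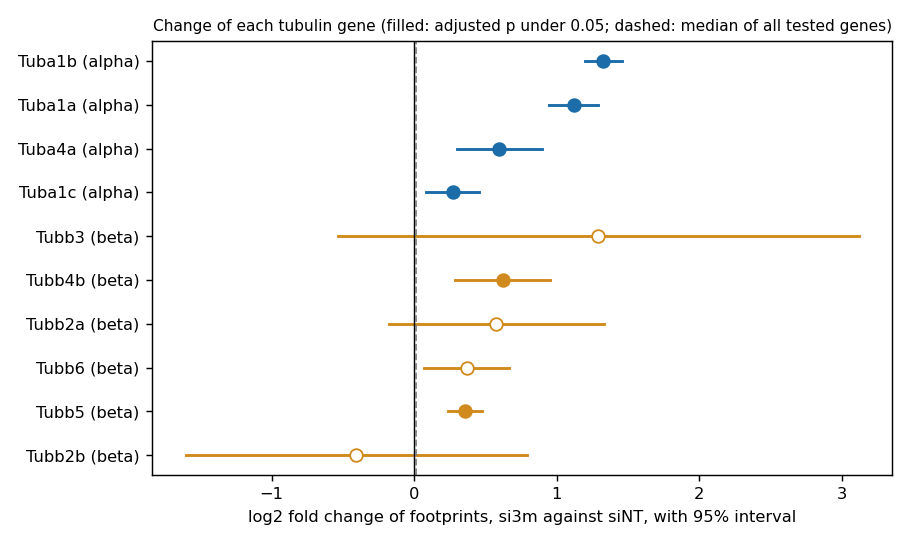
Log2 fold change of footprints in si3m against siNT (horizontal axis) with its 95% interval for the 4 alpha genes (blue) and 6 beta genes (orange), where filled points passed edgeR's test. Tuba1b (1.33) and Tuba1a (1.12) lie to the right of the other alpha genes, and the intervals of Tubb3, Tubb2a and Tubb2b cross 0.

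Set against each other, alpha tubulin gained more than beta tubulin. In siNT the summed alpha counts were 2154 and 1990 and the summed beta counts 2346 and 2103. In si3m the alpha sums were 8991 and 6601 and the beta sums 6187 and 4700. After scaling, alpha went from 521 ± 21.6 to 1040 ± 26.7 CPM, 2.0 times the siNT mean, and beta from 559 ± 35.1 to 728 ± 1.10 CPM, 1.30 times. The ratio of alpha to beta counts within a library, which no scaling can change, was 0.918 and 0.946 in the siNT libraries against 1.45 and 1.40 in the si3m libraries. Beta counts thus exceeded alpha counts in both siNT libraries, and alpha counts exceeded beta counts in both si3m libraries. No p-value is given for sums over chosen members, and an exact two-sided permutation test of 2 libraries against 2 cannot go below p = 0.33.

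Tuba1b and Tuba1a, the alpha genes with the largest rises, carried the shift in the ratio. With these taken out, Tuba1c and Tuba4a amounted to 0.336 ± 0.0317 of the beta counts in siNT and 0.329 ± 0.0387 in si3m. That difference is smaller than the spread between replicates. Since the genes taken out were picked by their rises in the same data and no beta gene was removed, this outcome was largely set by the choice. With the leading gene of each class left out instead, Tuba1b and Tubb5, the ratio was 3.06 ± 0.148 in siNT and 3.53 ± 0.150 in si3m. The most direct pairing, Tuba1b against Tubb5, went from 0.484 ± 0.00335 to 0.948 ± 0.0103.

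In percentage points, the make-up of the alpha class differed between groups by more than that of the beta class. Tuba1b went from 42.9% ± 1.15 to 54.0% ± 2.11 of alpha counts and Tuba1c from 27.2% ± 2.07 to 16.3% ± 1.42, without overlap between groups. Tuba1a held 21.1% ± 1.48 and 23.0% ± 0.0420, and Tuba4a 8.85% ± 0.563 and 6.67% ± 0.731, also without overlap. The gap of Tuba1a was narrow, with 22.1% in siNT replicate 1. Tubb6 held 8.18% ± 0.131 of beta counts in siNT and 8.12% ± 0.407 in si3m, and Tubb4b 7.26% ± 0.497 and 8.53% ± 1.53, differences below the larger SD. Of the scarce beta genes, Tubb2a held 1.04% ± 0.144 and 1.18% ± 0.109, Tubb2b 0.707% ± 0.327 and 0.413% ± 0.102, and Tubb3 0.213% ± 0.301 and 0.428% ± 0.0567, differences about equal to the larger SD for Tubb2a and below it for Tubb2b and Tubb3. All 10 genes together took 0.111% ± 0.00563 of the library in siNT and 0.171% ± 0.00475 in si3m. These shares are of counts not divided by coding length, which was not in the sources used here, so genes are not ranked by level.

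**Figure D3:**
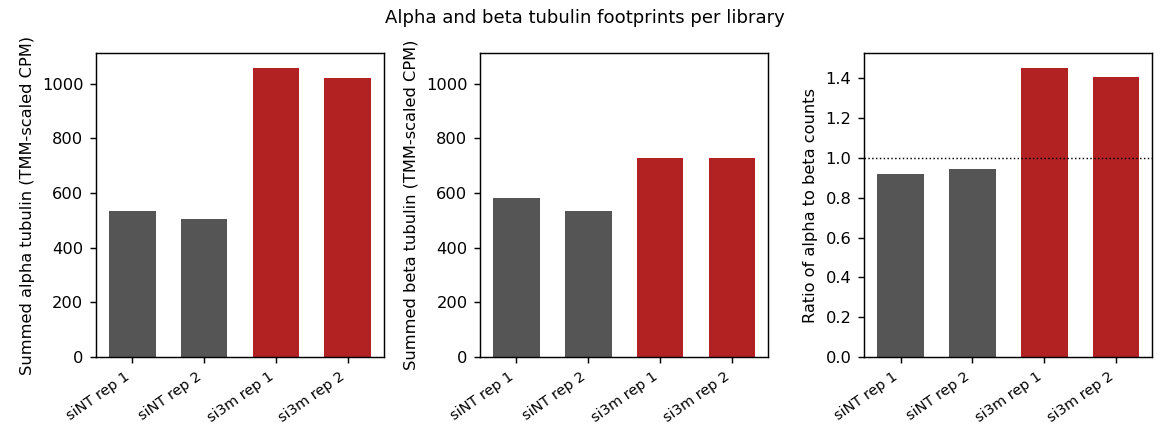
Summed alpha tubulin and summed beta tubulin footprints (TMM-scaled CPM, same vertical scale) and the ratio of alpha to beta counts, 1 bar per library. The ratio lies below 1 (dotted line) in both siNT libraries, at 0.918 and 0.946, and above it in both si3m libraries, at 1.45 and 1.40.

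Tubulin genes are alike in sequence and have many processed copies, so short footprints can match more than 1 of them, and how such reads were counted is not given in the sources used here. The RefSeq table lists 31 pseudogenes named after alpha or beta tubulins, 27 of alpha type and 4 of beta type, and 14 of them are named after Tuba1b. Only 3 had a row in the files. RGD1563709, listed there as a copy of Tuba1c, gave 138 and 120 counts against 212 and 184, a log2 difference of -0.28 (SE 0.19, edgeR adjusted p = 0.286), and LOC500273, a copy of Tuba1b, had 24 and 8 against 28 and 32. The third, LOC680435, had 4 counts in si3m replicate 2 and 0 elsewhere. LOC100364958, listed there as Tubb2al1 and not among these pseudogenes, had 0 and 0 counts in siNT against 10 and 2 in si3m, too few to be tested. In the GRCr8 annotation the span of Tuba1c begins upstream of the start used for the promoter above and includes Tuba1a and Tuba1b. Most counts in these files were even numbers, only 6.05% to 9.47% of rows with at least 100 counts being odd. The count of Tuba1b was odd in all 4 libraries and that of Tuba1a in 3. Tubb5 was odd in siNT replicate 2, and Tuba1c and Tubb4b in si3m replicate 1. The share of odd rows was not matched for count level, and Actb was odd in both siNT libraries too, at 5367 and 5733. The part of shared reads in the split between Tuba1a, Tuba1b and Tuba1c was not tested.

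Other tubulin genes were rare. Tuba3a, Tuba8, Tubal3 and Tubb1, isotypes of testis, muscle or blood platelets among other places, had 0 counts in each library, which allows up to 1.49 and 1.52 CPM in siNT and 0.707 and 0.928 CPM in si3m. Tubb4a, a brain isotype, had 0 in both siNT libraries and 10 in each si3m library, and Tuba3b had 0 and 0 against 4 and 6. The si3m levels of Tubb4a, 1.18 and 1.55 CPM, lay about the limit that 0 counts allow in a siNT library. Those of Tuba3b lay below it. A difference was therefore not detectable from single libraries, and neither gene passed the filter for testing. With libraries pooled by group and 6 counts allowed for siNT, Tubb4a was at least 1.77 times as high in si3m and Tuba3b at least 0.886 times. These limits cover counting error only. Tubg1, the gamma tubulin that nucleates microtubules, had 32 and 14 counts in siNT and 86 and 80 in si3m, a log2 difference of 0.96 (SE 0.38) that missed the threshold (edgeR adjusted p = 0.0723) and reached it without siNT replicate 1 (log2 1.65, 0.00142), with the replicate block (0.0484), with no low-count filter (0.0347) and with the stricter filter (0.0478). Its paralog Tubg2 had 0 and 2 against 8 and 10. Epsilon tubulin (Tube1) and delta tubulin (Tubd1), of centrioles, had log2 differences of 0.75 (SE 0.37) and 0.47 (SE 0.71) and did not pass, Tubd1 turning to -0.10 without siNT replicate 2 and to -0.27 without si3m replicate 2. None of these 3 was called in edgeR or DESeq2, and 1 was higher at an unadjusted p under 0.05.

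Of 12 tested genes of tubulin autoregulation, 0 were higher and 3 lower by edgeR (0 and 3 at an unadjusted p under 0.05, 0 and 1 in DESeq2), with a median log2 of -0.05. With 14.0% of all genes higher and 13.9% lower, these counts do not set the list apart. Cnot7, a catalytic deadenylase of CCR4-NOT, fell by 0.56 (log2, SE 0.11, edgeR adjusted p = 0.00146), from 103 ± 11.1 to 70.1 ± 4.16 CPM. Scaper, the adapter between TTC5 and CCR4-NOT, gave 154 and 92 counts against 166 and 126. Its fall of 0.66 (SE 0.23, adjusted p = 0.0470) was lost without siNT replicate 1 (log2 -0.26, 0.502), without si3m replicate 1 or 2 (0.111 and 0.112), with thinned counts, with upper quartile scaling and in DESeq2 (0.101). Cnot1, the scaffold of the complex, fell by 0.17 (SE 0.057, adjusted p = 0.0379), a call lost under 8 of 15 alternatives, the omission of any 1 library among them. Ttc5 itself, named here after its values were seen, gave 32 and 36 counts against 86 and 40, and its log2 value of -0.05 had an SE of 0.35 (95% interval -0.80 to 0.69).

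Folding of new tubulin runs through prefoldin, the chaperonin TRiC and the tubulin cofactors, and these genes moved both ways. Of 14 prefoldin and TRiC genes, 2 were higher and 3 lower (median log2 -0.02). With 14.0% of all tested genes higher and 13.9% lower, these counts do not set the list apart. Cct8 fell by 0.60 (SE 0.043, edgeR adjusted p = 4.34e-08) and Cct3 fell by 0.33 (SE 0.064, adjusted p = 0.00102), whereas Cct5 rose by 0.59 (SE 0.058, adjusted p = 1.73e-06), all 3 being subunits of the same ring. Among 7 cofactors, which join and release the heterodimer, 0 were higher and 1 lower, as at an unadjusted p under 0.05 and in DESeq2. Tbce, which binds alpha tubulin, fell by 0.76 (SE 0.14, adjusted p = 7.41e-04), from 91.3 ± 7.37 to 54.1 ± 10.9 CPM. Tbcd, which binds beta tubulin, had a log2 value of 0.31 (SE 0.20) and did not pass, moving to 0.68 without siNT replicate 1, where it passed (adjusted p = 0.0142). Tbcel had a log2 value of -0.30 (SE 0.24). Stmn1, which holds free heterodimer and was the only tested stathmin, had a log2 value of 0.18 (SE 0.20).

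Among enzymes that modify tubulin, 1 of 16 tested genes was higher and 2 lower, with a median log2 of 0.14, numbers close to those that the background of 14.0% and 13.9% gives. Sirt2, a deacetylase with alpha tubulin among its substrates, fell by 0.92 (SE 0.16, edgeR adjusted p = 3.88e-04), from 66.7 ± 13.4 to 35.2 ± 0.124 CPM. Ttll4, a glutamylase, fell by 0.61 (SE 0.16, adjusted p = 0.0100), not passing without si3m replicate 1 (0.0962). Agbl5, which removes glutamate branches, rose by 0.19 (SE 0.048, adjusted p = 0.00686), not passing with total count scaling (0.113). In the GRCr8 annotation Agbl5 spans a tRNA gene and overlaps Ost4.

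Among proteins that bind the microtubule lattice or its plus end, genes were also called in both directions. Of 16 tested microtubule-associated proteins, 3 were higher and 4 lower (median log2 0.05), where 14.0% and 13.9% of all tested genes were. Map4, the main such protein of non-neuronal cells, fell by 0.37 (SE 0.056, edgeR adjusted p = 1.18e-04), and Camsap2, which caps minus ends, fell by 0.53 (SE 0.082, adjusted p = 1.67e-04). Dclk1, a doublecortin-like kinase, rose 2.48-fold (log2 1.31, SE 0.14, adjusted p = 5.15e-06), with counts of 114 in each siNT library and 608 and 458 in si3m. Among 11 plus-end proteins 1 was higher and 2 lower, counts close to that background. Ckap5, a microtubule polymerase, rose by 0.69 (SE 0.075), while Clasp1, which stabilises microtubules, fell by 0.45 (SE 0.071) and the plus-end linker Clip1 fell by 0.69 (SE 0.12), with edgeR adjusted p-values up to 4.53e-04.

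Of the motors that carry cargo, none of 11 transport kinesin genes was called in either direction by edgeR or DESeq2, with 1 higher at an unadjusted p under 0.05 and a median log2 of -0.11. The 3 with the smallest p were Klc1 (log2 0.40, SE 0.16), which passed under 4 of 15 alternatives, Kif1b (-0.25, SE 0.12) and Klc2 (-0.47, SE 0.23). Of 23 dynein and dynactin genes, 4 were higher and 3 lower (median log2 -0.10). These counts are close to the background of 14.0% higher and 13.9% lower among all tested genes. Dynll1, a light chain with many partners besides dynein, rose by 1.05 (SE 0.12), Actr1b by 0.62 (SE 0.12) and Dync1li2 by 0.30 (SE 0.056), with edgeR adjusted p-values up to 0.00140. In the gamma-tubulin ring complex and its anchors, 0 of 12 were higher and 1 lower (3 and 1 at an unadjusted p under 0.05, 0 and 1 in DESeq2). The anchor Akap9 fell by 0.65 (SE 0.081, edgeR adjusted p = 2.10e-05), and Tubgcp6 had a log2 value of 0.68 (SE 0.26, edgeR adjusted p = 0.0625), which passed with thinned counts (0.0350).

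Genes of the spindle and of proliferation were mostly higher in si3m. Of 20 mitotic spindle genes, 13 rose and 0 fell, where 14.0% of all tested genes were higher, at a median log2 of 0.75, with 14 and 0 at an unadjusted p under 0.05 and 13 and 0 in DESeq2. Cenpf, a centromere protein, rose by 1.04 (SE 0.081), Kif20a, a motor of the late spindle, by 1.22 (SE 0.16), and Kif11, the motor that separates spindle poles, by 0.73 (SE 0.090), with edgeR adjusted p-values up to 2.58e-05. Of 15 proliferation genes, 12 rose and 0 fell (12 and 0 unadjusted, 10 and 0 in DESeq2; median log2 0.54), and 1 was lower with total count scaling. The division marker Mki67 rose by 0.70 (SE 0.065), Ccnb1, the mitotic cyclin, by 1.25 (SE 0.13) and Top2a, which untangles DNA, by 0.53 (SE 0.062), with adjusted p-values up to 1.14e-05. Depolymerising kinesins and severing enzymes gave 3 higher and 2 lower of 10, where 14.0% and 13.9% of all tested genes were. Kif2c, the mitotic centromere kinesin, rose by 1.29 (SE 0.21), while Spast, which severs stable microtubules, fell by 0.52 (SE 0.10), with edgeR adjusted p-values up to 0.00120.

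The summed level of the 15 proliferation genes was 1438 and 1367 CPM of the library total in siNT and 1800 and 1774 in si3m, higher in both si3m libraries as the summed tubulins were. Fibroblast markers moved the same way, 8 of 9 tested genes being higher and 1 lower, where 14.0% and 13.9% of all tested genes were. The cardiomyocyte sum was also higher in both si3m libraries, with 361 and 349 CPM in siNT against 387 and 400. So was the smooth muscle sum, with 3265 and 3241 CPM against 3583 and 3593. Of 5 tested cardiomyocyte genes 2 were higher and 2 lower, and of 7 smooth muscle genes 1 and 1. The summed leukocyte markers moved the opposite way. Neither cytoplasmic actin, the other main cytoskeletal protein of such cells, was called: Actb had a log2 value of -0.02 (SE 0.043), which turned to 0.05, 0.01 and 0.00 without siNT replicate 2, without si3m replicate 1 and with no low-count filter, and Actg1 of -0.06 (SE 0.047), with 0 of these 2 called by edgeR, by DESeq2 or at an unadjusted p under 0.05. The part of cell division or of cell composition in the tubulin values was not tested. Of 154 tested genes in the 14 microtubule lists as a whole, 27 were higher and 21 lower, where 14.0% and 13.9% of all tested genes were.

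**Figure D4:**
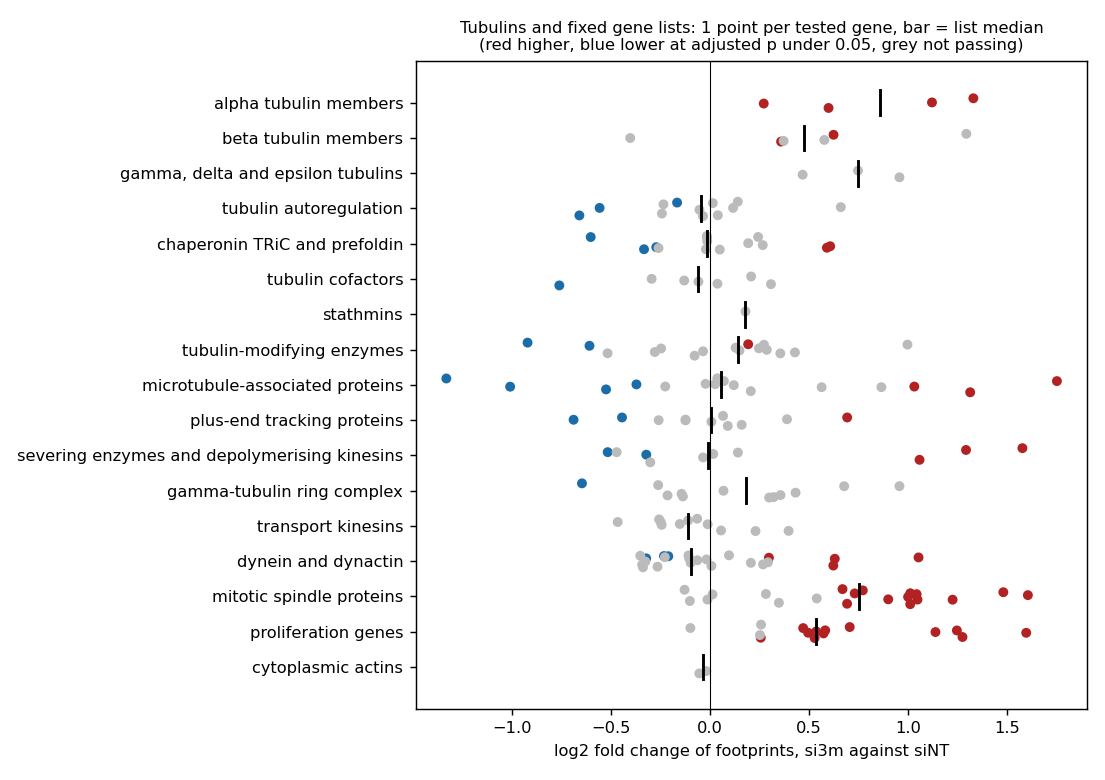
Log2 fold change of footprints in si3m against siNT (horizontal axis) for each tested gene of the tubulins and of the lists around them, with a bar at each list's median, red points higher and blue points lower at an adjusted p under 0.05. The alpha tubulins (median 0.86), the beta tubulins (0.47), the mitotic spindle genes (0.75) and the proliferation genes (0.54) have red points and no blue points. The kinesins of transport, the gamma, delta and epsilon tubulins, the stathmins and the cytoplasmic actins have no red or blue points.

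Reads that fall in parts shared by overlapping genes cannot be assigned with certainty where the strand setting is unknown. The overlaps below are of whole gene spans, introns included. Whether exons overlap was not checked, nor whether the same spans hold on rn6, the build in the processing notes. In the GRCr8 annotation, among the genes named above, Cct8 overlaps Usp16, Tbce overlaps B3galnt2, Kif20a overlaps Cdc23, Kif11 overlaps Ide, Klc1 overlaps Xrcc3 and Cnot1 overlaps Setd6. Tbcd overlaps Znf750 and B3gntl1, Tube1 overlaps Fam229b, and Sirt2, Dclk1, Spast and Klc2 each overlap a predicted locus with a row (LOC103689966, LOC102552324, LOC103692563 and LOC102555354). Ckap5 spans a tRNA gene and a snoRNA gene. Of the tubulin members, Tuba1c overlaps 17 protein-coding genes with a row by its long span, among them Kmt2d, Ddx23, Arf3 and Prkag1 besides Tuba1a and Tuba1b, so the counts of these 3 tubulins are uncertain where reads were assigned over such spans. Tuba4a overlaps a pseudogene and Tubb4b overlaps Cimip2a, neither with a row in the files.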

How the data were processed

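Ribosome footprints were measured in 2 siNT and 2 si3m libraries. The authors deposited raw counts per gene symbol as whole numbers, without normalization. Per the labels' protocols, the libraries were made from ribosome-protected fragments with a small RNA kit. Per the submitters' processing notes, Trimmomatic 0.40, HISAT2 2.2.1, featureCounts, the packages DESeq2 and limma and the build rn6 were involved. Not given in the sources used here are the role of each, the annotation, the strand setting and how multiply matching reads were counted. Most counts above 0 were even (94.9% to 97.3% per library), so a count of 0 was taken to allow 3 fragments, or 6 deposited counts. Such limits cover counting error only, since reads were counted without molecular identifiers.

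The groups were compared by edgeR's two-sided quasi-likelihood test (edgeR 4.0.16, R 4.3.3, filterByExpr at 10 counts, TMM), with Benjamini-Hochberg adjustment over the 12672 genes that passed the filter and a threshold of 0.05. The SE is the log2 fold change divided by the square root of the F statistic, and 95% intervals use the fit's degrees of freedom. TMM scaling makes each value relative to the other footprints, so a change in total translation would not show. Gene symbols were matched to RefSeq genes of GRCr8 (24211 of 31038), used for names, gene type, neighbours and promoter sequences.

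The members and the gene lists were chosen with earlier results of these data known. The text names the 10 members, every other tubulin gene, Eif3m and, from each other list, the 3 tested genes with the smallest p, or fewer where fewer were tested; of the marker lists, the gene with the highest mean count was to be named. Marker genes at 0 were named after their values were seen. A gene that the rule names is not reported here. Replicates differed by more than counting noise (median chi-square over rows 1.40 times that of pure counting in siNT and 1.48 times in si3m) and were kept as 2 samples.

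Counts simulated for this comparison over 12672 genes, all with 1 common dispersion, gave recoveries of 31.4% of genes changed 1.5-fold, 81.0% of those changed 2-fold and 98.5% of those changed 4-fold. Alternatives were DESeq2 1.42.0, other scalings (total count, upper quartile, the size factors of DESeq2), robust quasi-likelihood, a stricter low-count filter (50 counts in 2 samples) or none, the replicate block, each library left out, halved counts, thinned counts and protein-coding rows only.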

Additional observations from a re-analysis of the deposited data

How the results depend on the processing

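Of the 10 tubulin members, Tuba1a, Tuba1b and Tubb5 passed under all 15 alternatives. Tuba4a and Tubb4b passed under 14 of 15 and Tuba1c under 11 of 15. The log2 value of Tuba1c was 0.19 with total count scaling and 0.26 in DESeq2, neither passing. With no low-count filter Tubb6 passed at 0.39. With a library left out, log2 ranged from 0.16 to 0.39 for Tuba1c, 0.46 to 0.73 for Tuba4a, 0.43 to 0.80 for Tubb4b, 0.30 to 0.46 for Tubb6, -0.84 to 0.26 for Tubb2b and 0.32 to 7.30 for Tubb3, the last set by a lone siNT library at 0 counts and so dependent on the prior count. The number of members called higher ranged from 3 (without si3m replicate 1) to 7 (without siNT replicate 1). Summed over a class, si3m values were 1008 (alpha) and 705 (beta) CPM with total count scaling, and 726 for beta with DESeq2 size factors. Without Tuba1b and Tubb5 the sums were 297 and 97.3 CPM in siNT and 479 and 136 CPM in si3m, and the ratio of alpha to beta 3.06 and 3.53, since the leading gene of each class was removed.

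Over all genes, 1771 were higher and 1757 lower. Total count scaling gave 1428 and 2217, and moved the median of all genes from 0.02 to -0.06. DESeq2 gave 1199 and 1327. With a library left out, the fits assume that a lone library varies like the others. Then Tubd1 ranged from -0.27 to 1.44 (-0.10 without siNT replicate 2) and Actb from -0.077 to 0.049 (0.01 without si3m replicate 1), and with no low-count filter Actb was at 0.0023; the cause was not tested. Halved counts and the stricter filter left too few counts of Tubb2b and Tubb3 to test.

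The replicate numbers are not said to pair the libraries, and same-numbered libraries did not deviate together (correlation -0.02 over tested genes). With the replicate block 1851 genes were higher and 1843 lower, 6 members were higher, and Tubg1 passed (log2 0.99). Among the microtubule lists, 28 were higher and 21 lower under the block. Over all alternatives, 471 counts of called genes per list stayed within 1.5 times their value and 39 did not, and of the log2 values of single list genes and other tubulins 596 kept their direction and call, 17 lost a call, 10 gained one and 5 changed sign.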
